A study of Mus musculus with 12 samples.

Results

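The 10 genes described here encode the core of the smooth muscle contractile apparatus: the smooth muscle actins *Acta2* and *Actg2*, the smooth muscle myosin heavy chain *Myh11*, the myosin light chains *Myl9* and *Myl6*, the light chain kinase *Mylk*, and the actin-associated proteins *Tagln*, *Cnn1*, *Smtn*, and *Lmod1*. They were chosen by gene name, as 10 of the 54532 genes in the deposited tables, and all 10 passed the filter on low values in both tissues. In smooth muscle, calcium bound to calmodulin activates the kinase encoded by *Mylk*, which phosphorylates the regulatory light chain and lets myosin pull on actin filaments. Relaxation follows when a phosphatase removes the phosphate again. Most of these genes are textbook targets of serum response factor (SRF) and its partners, and they are widely used as markers of the contractile state of smooth muscle.

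RNA of distal colon and urinary bladder was sequenced from 9 male mice, 5 to 7 weeks old by the labels. There were 12 libraries, 3 of each genotype for a tissue, and each library was made from 1 mouse. All mice carried floxed alleles of *Yap1* and *Wwtr1* (the genes of the transcriptional coactivators YAP and TAZ) and received tamoxifen, 1 mg per mouse per day for 5 days, with tissue taken on day 7 after the first injection. Y/T KO mice also carried Myh11CreERT2, a tamoxifen-inducible Cre under a *Myh11* promoter, whereas Ctrl mice were Cre-negative, so that tamoxifen was shared by both groups but the transgene was not. The driver is thus the promoter of a gene that is itself described here. Values of single libraries are listed by mouse, in the colon as 788, 786, and 787 for Ctrl, then 759, 783, and 780 for Y/T KO. In the bladder the order is 784, 785, and 788 for Ctrl, then 782, 783, and 780 for Y/T KO. Colon and bladder came from the same animal in 3 cases (788, 783, and 780). The unit is TPM, the length-corrected share of a transcript in its library scaled to the same sum for each library. Single libraries are given as deposited, gene coordinates are those of the files (GRCm38), and fold changes are on the log2(rescaled TPM + 0.1) scale.

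The tissue labels held against marker lists: 8 urothelial genes summed to 4754 to 6348 TPM in bladder libraries and to 136 TPM or less in colon, and 10 colon epithelial genes to 12281 to 15289 TPM in colon and at most 944 in bladder. In libraries labelled Y/T KO, *Yap1* ran from 41.3 to 47.0 TPM for colon against 45.8 to 54.9 in Ctrl, and from 69.4 to 72.1 against 98.6 to 110 for bladder (log2 fold change -0.54, limma adjusted p = 0.0625). *Wwtr1* was not lower in Y/T KO, with log2 fold changes of 0.18 (colon) and 0.24 (bladder). Whole-gene values of whole tissue do not show whether a floxed exon was removed, so genotypes are taken from the labels throughout. Aligned sequence ran from 2.80 to 3.93 gigabases per library.

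A pair of libraries stood apart. In the Y/T KO bladders of mice 783 and 780, 8 of 8 skeletal muscle genes exceeded every other bladder library, with sums of 5485 and 5864 TPM against 371 in Y/T KO mouse 782 and 331 to 803 in Ctrl bladder. The fast myosin heavy chain *Myh4*, a defining marker, was at 409 and 432 TPM in these libraries, at 46.1 in Ctrl mouse 784, and listed at 0 in the other 3 bladders. The 10 core genes together took 4.13%, 5.41%, and 5.05% of library TPM in Ctrl bladder, and 3.92%, 2.63%, and 2.19% in Y/T KO bladder. The same libraries that held skeletal muscle transcripts thus had the smallest share of core genes, and the bladder fits of the members and of the other gene lists are given with and without them. In the colon, the core genes took 1.16%, 1.02%, and 1.16% in Ctrl and 0.795%, 0.895%, and 0.756% in Y/T KO, and skeletal muscle genes summed to 30.7 TPM or less in all 6 libraries. Pancreatic acinar transcripts, from 5 genes, summed to 7.03 to 128 TPM in Ctrl colon and 0.344 to 1.08 TPM in Y/T KO colon, which is 0.0128% of a library at most. The part of these other cell types in the values below was not tested.

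**Figure D1:**
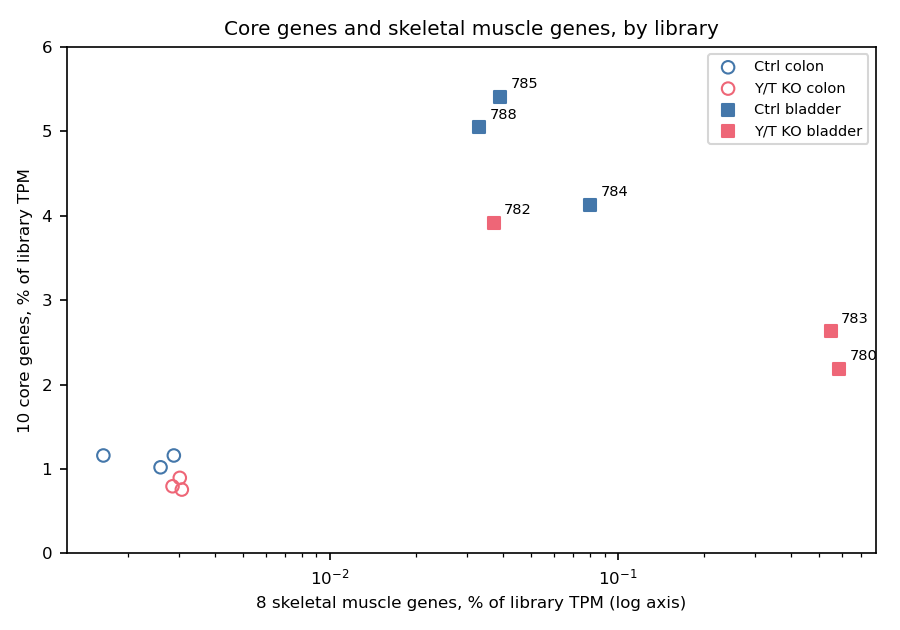
Share of library TPM taken by the 10 core genes (y axis, %) against that taken by 8 skeletal muscle genes (x axis, %, log axis) in each library. Circles are colon, squares bladder (with the number of the mouse), blue Ctrl, and red Y/T KO. The Y/T KO bladders of mice 783 and 780 lie far to the right at 2.63% and 2.19%, whereas that of mouse 782 lies beside the Ctrl bladders at 3.92%.

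Both smooth muscle actins had to be told apart from each other, from the cytoplasmic actins *Actb* and *Actg1*, and from the striated muscle actins *Acta1* and *Actc1*, since actin genes are much alike. The first coding bases of 3 of them, from the GENCODE transcripts, show how often they differ. Capitals mark bases that differ from *Acta2* in an alignment of the whole coding sequences. That alignment has 3 gap positions for *Actg2* and 6 for *Actb*, and gaps are not printed. Their lines therefore run out of step with the *Acta2* line, and a lowercase base matches the aligned base, not always the one printed above it.
Acta2: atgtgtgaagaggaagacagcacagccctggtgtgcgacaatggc
Actg2: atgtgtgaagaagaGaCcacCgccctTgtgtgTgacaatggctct
Actb: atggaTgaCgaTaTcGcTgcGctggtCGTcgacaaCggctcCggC
Over the coding sequence *Acta2* was 85.4% identical to *Acta1*, 84.4% to *Actg2*, 83.2% to *Actb*, and 82.5% to *Actc1*. *Acta1* ran from 1057 to 1331 TPM in Ctrl bladder and from 915 to 2244 TPM in Y/T KO bladder. Of all 50-base windows of the main transcript, 0.35% for *Acta2*, 0.42% for *Myh11*, and 0% for *Actg2* were found unchanged in another gene. *Myl6* was the exception among the 10, with 53.25% of its windows present in other genes, mostly processed copies such as *Gm5526* and *Gm10080*. Its values are therefore uncertain, since the authors' assignment of reads could have split them.

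YAP and TAZ do not bind DNA themselves but act through TEAD factors, whose best known site is CATTCC, and SRF binds the CArG box, CC and GG around 6 bases that are each A or T. Promoters were looked up for these sites because the members are described together. The RefSeq promoter table (GRCm38.p6) held 8 promoters of 7 members and none for *Actg2*, *Myh11*, or *Tagln*. In the 250 bases before the start, CATTCC or its reverse complement GGAATG lay in 4 members (*Acta2*, *Lmod1*, *Smtn*, and *Mylk*), as in 12.6% of all 32851 promoters, and a CArG box in 2 (*Myl9* and *Myl6*), as in 1.47%. The counts of members are by gene, and the shares are by promoter. For *Myl6* the box lay only in the inner promoter. The promoter nearer the start of the gene (chr10:128493887-128494136) held neither site. The listed promoters of *Mylk* (chr16:34784700-34784949) and *Smtn* (chr11:3539293-3539542) also lay inside the spans of these genes, not before their first base. The matches of 4 members are shown with the motif in capitals, read along the gene's strand. The flanks are kept to 30 bases for *Acta2* and *Myl6*, where GENCODE has an exon at the match.
Acta2, chr19:34255502-34255531, minus strand: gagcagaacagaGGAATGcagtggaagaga
Lmod1, chr1:135324638-135324733, plus strand: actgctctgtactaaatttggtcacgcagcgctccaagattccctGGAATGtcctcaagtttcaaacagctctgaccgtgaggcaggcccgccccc
Myl9, chr2:156775258-156775357, plus strand: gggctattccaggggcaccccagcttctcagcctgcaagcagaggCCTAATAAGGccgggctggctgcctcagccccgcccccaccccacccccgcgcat
Myl6, chr10:128493040-128493069, minus strand: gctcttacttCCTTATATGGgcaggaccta
These are letters in a window and not shown to be bound sites, and a missing match says only that the exact letters were absent from these bases. The *Acta2* window, for example, also holds ccctatatgg and ccttgtttgg, which each miss the CArG pattern by a base and were not counted. Near matches were not sought in the other promoters.

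In Ctrl colon the levels ran from *Myl6* (mean 2607 TPM), *Actg2* (2189), *Tagln* (2092), and *Acta2* (1973) over *Myl9* (1067), *Cnn1* (506), *Myh11* (395), *Mylk* (181), and *Smtn* (115) to *Lmod1* (37.1). The ranges of the first 4 overlapped from each to the next, as did those of *Cnn1* and *Myh11*, and the other neighbours did not overlap. In Ctrl bladder *Actg2* (11129 TPM), *Tagln* (10612), and *Acta2* (10572) led with overlapping ranges, then *Myl6* (4882), *Myl9* (4018), *Cnn1* (2742), and *Myh11* (2529), also overlapping from each to the next. *Mylk* (1390), *Smtn* (536), and *Lmod1* (229) followed without overlap. The myosin heavy chain therefore ranked above its kinase in both tissues, and *Myl6*, a light chain expressed in most cell types, was first in the colon but came after *Actg2*, *Tagln*, and *Acta2* in the bladder.

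**Figure D2:**
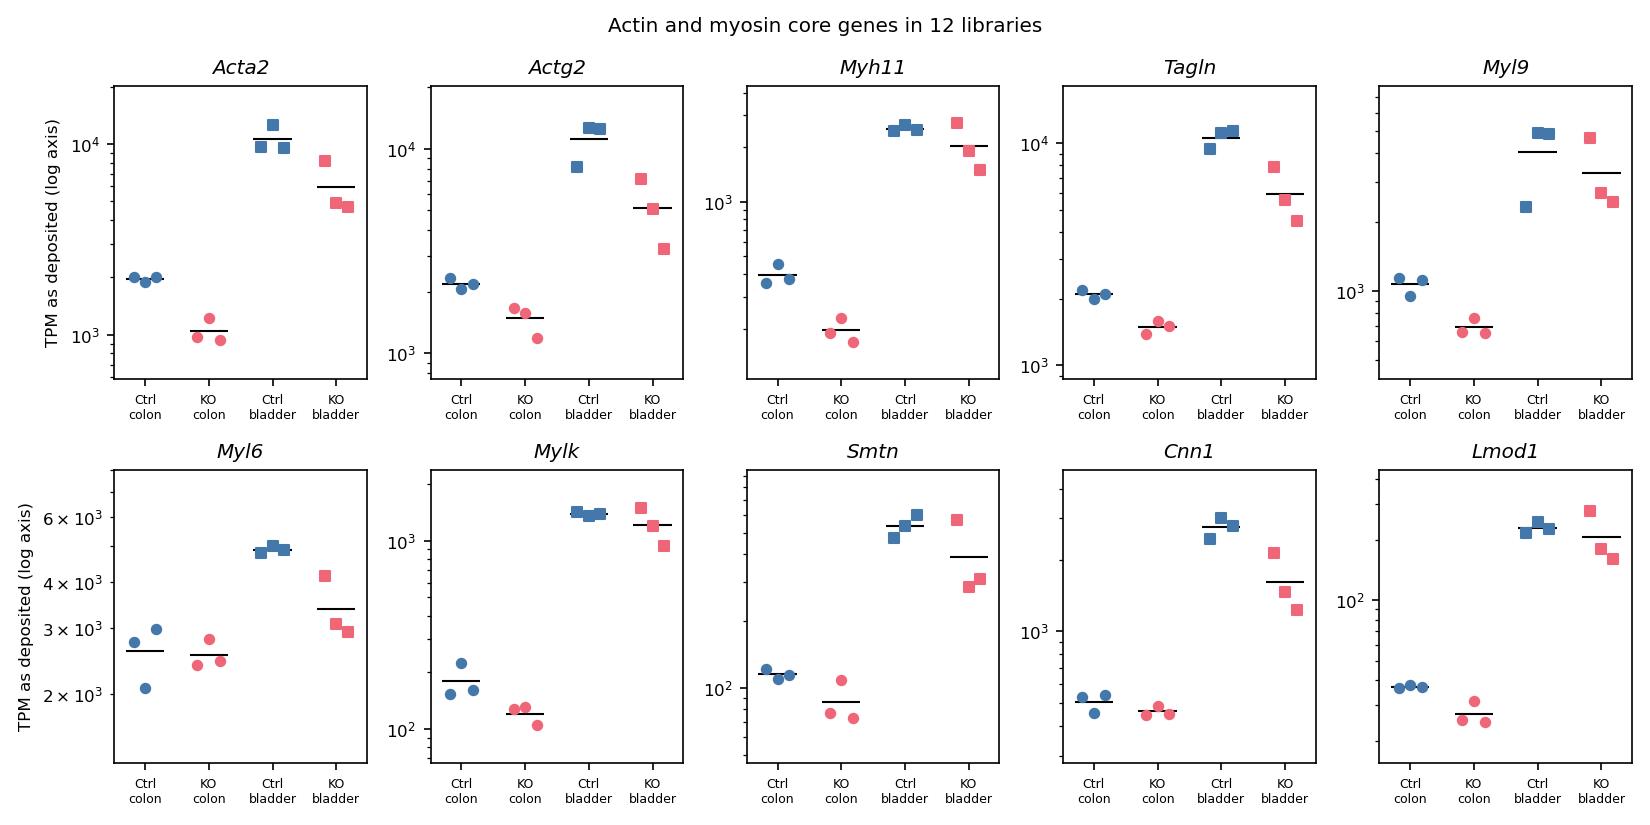
TPM as deposited (y axes, log, each panel with its own range) of the 10 genes in 12 libraries. Points are libraries, circles colon and squares bladder, blue Ctrl and red Y/T KO, in the order of mice given in the text, and lines are group means. Bladder exceeds colon for each gene in Ctrl, and in Y/T KO bladder the first point, mouse 782, is the highest of 3 for all 10 genes.

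The question of the knockout is whether loss of YAP and TAZ lowers these transcripts. In the colon, 9 of 10 members had a lower mean log2 value in Y/T KO and 7 were lower in every Y/T KO library than in every Ctrl library, whereas 7.87% of all tested genes were so. None passed an adjusted p of 0.05 in limma (0 of 10, where 0.0800% of all genes were called lower), and 7 had an unadjusted p under 0.05 (4.59% of all genes, lower). The median log2 fold change was -0.49 over the members and 0.01 over all 17500 genes tested. In these bulk libraries, fewer smooth muscle cells and less RNA per cell cannot be told apart. In stained colon sections, the paper reports no change in the number of smooth muscle nuclei. By quantitative PCR of whole colon, it found *Myh11*, *Acta2*, *Myl9*, and *Tagln* reduced. In dissected colon muscle, *Myh11* and *Acta2* were reduced, but *Myl9* and *Tagln* not significantly so. Its Western blots showed less protein of smooth muscle alpha actin, myosin heavy chain, and myosin light chain in Y/T KO colon. Those assays were generally made later than day 7. With DESeq2, the paper places *Acta2*, *Actg2*, and *Tagln* among transcripts lowered in both tissues. Its discussion also counts *Myh11* among those repressed in colon and bladder, whereas here the *Myh11* values of the genotypes overlapped in the bladder. With 3 against 3, an exact permutation test cannot go below p = 0.10.

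Of the actins, *Acta2* (ENSMUSG00000035783, chr19:34241090-34255336, minus strand), the vascular and visceral alpha actin, stood at 2010, 1900, and 2008 TPM in Ctrl colon against 981, 1227, and 937 in Y/T KO colon. Every Y/T KO value was below every Ctrl value, and the Y/T KO mean was 54.3% of Ctrl on rescaled TPM (log2 fold change -0.88, SE 0.17, limma adjusted p = 0.15). *Actg2* (ENSMUSG00000059430, chr6:83512905-83536265, minus strand), the gamma actin typical of visceral smooth muscle, stood at 2332, 2056, and 2180 TPM in Ctrl against 1666, 1580, and 1192 in Y/T KO. It also did not overlap, at 69.0% of Ctrl (log2 fold change -0.54, SE 0.18, limma adjusted p = 0.447). Each of the 3 Y/T KO colons lay between 49.3% and 63.0% of the Ctrl mean for *Acta2* and between 56.5% and 77.4% for *Actg2*.

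*Myh11* (ENSMUSG00000018830, chr16:14194535-14291372, minus strand) had the largest log2 fold change of the 10 in the colon, at 355, 452, and 377 TPM in Ctrl against 189, 229, and 168 in Y/T KO. The groups did not overlap and the Y/T KO mean was 50.9% of Ctrl (log2 fold change -0.98, SE 0.15, 95% interval -1.34 to -0.63, limma adjusted p = 0.0958). The regulatory light chain *Myl9* (ENSMUSG00000067818, chr2:156775420-156781658, plus strand), the substrate of the kinase, was at 1139, 949, and 1112 TPM in Ctrl against 662, 760, and 656 in Y/T KO (log2 fold change -0.58, limma adjusted p = 0.377). Its ranges were apart, and those of the essential light chain *Myl6* (ENSMUSG00000090841, chr10:128490860-128494145, minus strand) were not, at 2761, 2079, and 2980 TPM in Ctrl against 2390, 2812, and 2443 in Y/T KO. *Myl6* had a log2 fold change of 0.02 with a 95% interval from -0.47 to 0.51, and it took a negative sign under other scalings (-0.02 on TPM as deposited). *Mylk* (ENSMUSG00000022836, chr16:34745210-35002420, plus strand) was at 154, 225, and 162 TPM in Ctrl against 127, 130, and 105 in Y/T KO, without overlap (log2 fold change -0.53, limma adjusted p = 0.400). The *Mylk* gene also encodes telokin, a short protein from the same 3′ exons, and the gene-level value does not separate them.

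Among the actin-associated genes, *Tagln* (ENSMUSG00000032085, chr9:45929619-45936058, minus strand), which encodes the actin cross-linker transgelin (SM22), was at 2185, 1984, and 2107 TPM in Ctrl colon against 1385, 1585, and 1511 in Y/T KO. It was apart at 73.0% of Ctrl (log2 fold change -0.45, limma adjusted p = 0.458). *Lmod1* (ENSMUSG00000048096, chr1:135324807-135368065, plus strand), an actin filament nucleator of smooth muscle, was the least abundant member and the least variable in Ctrl, at 36.5, 37.9, and 36.9 TPM against 25.5, 31.4, and 24.7 TPM in Y/T KO. It was also apart, at 75.0% of Ctrl (log2 fold change -0.42, limma adjusted p = 0.462). *Smtn* (ENSMUSG00000020439, chr11:3517523-3540612, minus strand), the gene of the filament-binding protein smoothelin, was at 122, 110, and 114 TPM in Ctrl against 77.0, 109, and 73.2 in Y/T KO, where mouse 783 lay a little below the lowest Ctrl value as deposited. After rescaling its groups overlapped (log2 fold change -0.40, limma adjusted p = 0.532). *Cnn1* (ENSMUSG00000001349, chr9:22099216-22109630, plus strand), which encodes calponin, an inhibitor of the actomyosin ATPase, overlapped at 528, 451, and 539 TPM in Ctrl against 445, 486, and 450 in Y/T KO, with a log2 fold change of -0.10 and a 95% interval from -0.47 to 0.28. *Acta2* and *Myh11* were thus at 54.3% and 50.9% of Ctrl while *Cnn1* and *Myl6*, from the same libraries, were at 92.8% and 99.2% (ratios of mean rescaled TPM, so that *Myl6* lies below 100% with a log2 fold change above 0). Y/T KO mouse 783 was the highest of 3 for 9 of 10 members, and colon epithelial genes summed to 12792 to 15289 TPM in Ctrl and 12281 to 14056 TPM in Y/T KO.

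In the bladder, all 10 members had a lower mean log2 value in Y/T KO, and 5 were lower in every Y/T KO library than in every Ctrl library, as were 11.4% of all genes. None passed an adjusted p of 0.05 in limma (0 of 10, beside 0.219% of all genes called lower), and 5 had an unadjusted p under 0.05 (8.20% of all genes, lower). The median log2 fold change was -0.54 over the members and 0.00 over all 18237 genes tested. Without the 2 libraries rich in skeletal muscle transcripts, the median was -0.12, and 5 members had a log2 fold change above 0. That fit leaves mouse 782 alone against 3 Ctrl mice and takes its spread to be that of the Ctrl group.

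*Acta2* stood at 9646, 12578, and 9492 TPM in Ctrl bladder against 8194, 4896, and 4685 in Y/T KO. All 3 Y/T KO libraries were below the Ctrl libraries, mouse 782 by the least (log2 fold change -0.87, SE 0.22, limma adjusted p = 0.178, and -0.41 with mouse 782 alone). *Actg2* was at 8148, 12704, and 12536 TPM in Ctrl against 7160, 5055, and 3221 in Y/T KO, the largest log2 fold change of the 10 in the bladder. The groups did not overlap, at 46.2% of Ctrl (log2 fold change -1.16, SE 0.30, 95% interval -1.89 to -0.43, limma adjusted p = 0.187, and -0.66 with mouse 782 alone). On rescaled TPM, mouse 782 was at 74.5% of the Ctrl mean for *Acta2* and 62.1% for *Actg2*.

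*Myh11* overlapped in the bladder, at 2454, 2652, and 2479 TPM in Ctrl against 2722, 1915, and 1499 in Y/T KO, where mouse 782 was above every Ctrl mouse. Its log2 fold change was -0.35 (95% interval -0.82 to 0.12, limma adjusted p = 0.452) and 0.06 with mouse 782 alone. *Myl9* was at 2314, 4902, and 4836 TPM in Ctrl against 4669, 2666, and 2452 in Y/T KO, so that Ctrl mouse 784 was the lowest of all 6. Its log2 fold change was -0.28 (95% interval -1.13 to 0.56) and 0.25 with mouse 782 alone. *Myl6* was at 4773, 5004, and 4870 TPM in Ctrl against 4144, 3083, and 2930 in Y/T KO, apart at 69.1% of Ctrl (log2 fold change -0.55, limma adjusted p = 0.148, and -0.29 with mouse 782 alone). *Mylk* overlapped, at 1423, 1361, and 1386 TPM in Ctrl against 1488, 1198, and 939 in Y/T KO (log2 fold change -0.23, 95% interval -0.60 to 0.15, and 0.05 with mouse 782 alone).

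*Tagln* was at 9427, 11080, and 11328 TPM in Ctrl bladder against 7824, 5549, and 4460 in Y/T KO. It had the lowest adjusted p of the members in the bladder and did not overlap (log2 fold change -0.87, SE 0.19, limma adjusted p = 0.143, and -0.49 with mouse 782 alone). *Cnn1* was at 2443, 2993, and 2791 TPM in Ctrl against 2150, 1460, and 1231 in Y/T KO, also apart (log2 fold change -0.80, limma adjusted p = 0.162, and -0.40 with mouse 782 alone). *Smtn* was at 473, 537, and 598 TPM in Ctrl against 572, 284, and 310 in Y/T KO, where only mouse 782 reached the Ctrl range (log2 fold change -0.53, limma adjusted p = 0.371, and 0.05 with mouse 782 alone). *Lmod1* was at 215, 246, and 226 TPM in Ctrl against 278, 179, and 161 in Y/T KO, with mouse 782 above every Ctrl mouse (log2 fold change -0.19, 95% interval -0.64 to 0.26, and 0.23 with mouse 782 alone). The members that stayed below Ctrl in mouse 782 were *Acta2*, *Actg2*, *Tagln*, *Myl6*, and *Cnn1*, at 62.1% to 81.7% of the Ctrl mean, and *Myh11*, *Myl9*, *Mylk*, *Smtn*, and *Lmod1* were at 103% to 117%. These 5 and 5 were sorted after their values were seen and their difference was not tested. In the same 6 libraries, 8 urothelial genes summed to 5787 to 6348 TPM in Ctrl and 4754 to 6046 TPM in Y/T KO, and 5 neuron and glia genes to 362 to 445 TPM and 469 to 598 TPM.

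**Figure D3:**
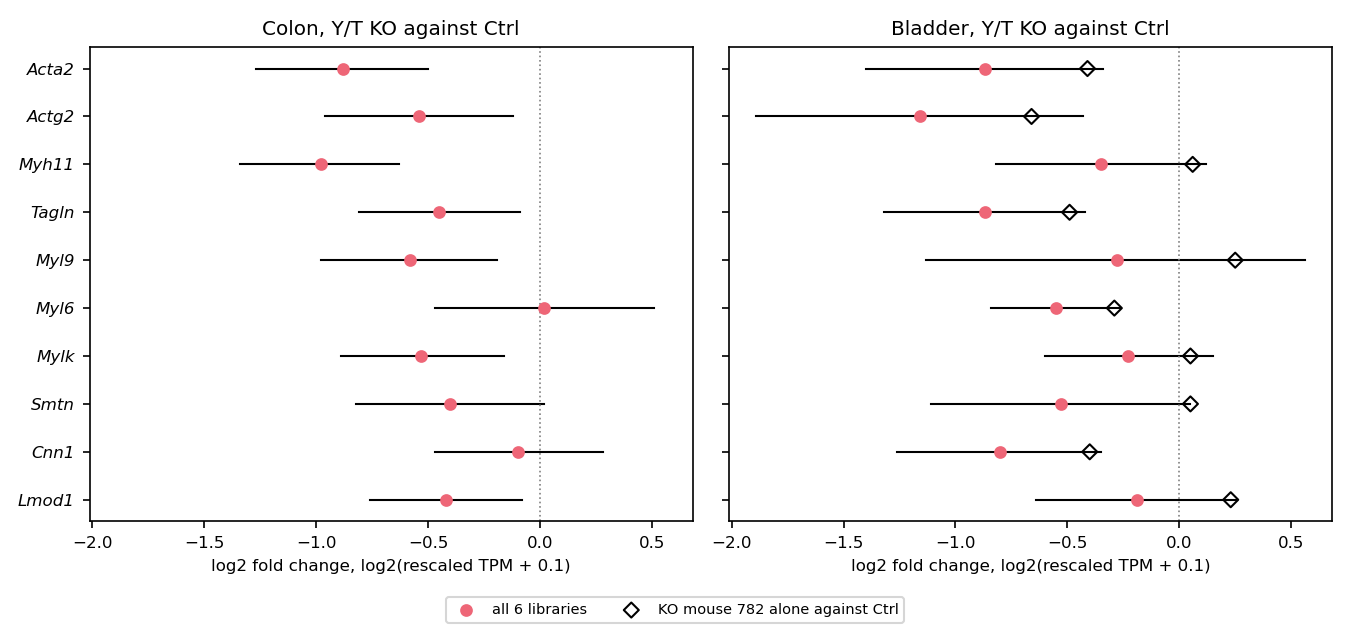
Log2 fold change of Y/T KO against Ctrl (x axes, log2(rescaled TPM + 0.1) scale) for the 10 genes in colon (left) and bladder (right). Red points are limma estimates from 6 libraries with 95% intervals as lines, and open diamonds use mouse 782 as the only Y/T KO bladder. The diamonds of *Acta2*, *Actg2*, *Tagln*, *Myl6*, and *Cnn1* stay below 0 and those of the other 5 genes lie between 0.05 and 0.25.

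Whether the knockout acted differently in the bladder and the colon was tested with limma on all 12 libraries, as an interaction term. No member passed an adjusted p of 0.05 (0 of 10, beside 0.0552% of 16298 genes), and 2 had an unadjusted p under 0.05 (12.6% of all genes). These were *Cnn1*, with a difference of -0.68 (bladder effect minus colon effect, SE 0.26, adjusted p = 0.312), and *Myh11*, with 0.66 (SE 0.26, adjusted p = 0.338). The difference for *Acta2* was 0.04 with a 95% interval from -0.59 to 0.66, so that a difference of either sign within these bounds could not be told from 0. The interval of *Actg2* ran from -1.41 to 0.22 and that of *Tagln* from -0.93 to 0.14. Without the Y/T KO bladders of mice 783 and 780, these differences were -0.28 for *Cnn1*, 1.06 for *Myh11*, 0.50 for *Acta2*, -0.10 for *Actg2*, and -0.02 for *Tagln*. The other members were then at 0.85 (*Myl9*), 0.67 (*Lmod1*), 0.59 (*Mylk*), 0.47 (*Smtn*), and -0.28 (*Myl6*). That fit again leaves mouse 782 as the only Y/T KO bladder.

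Ctrl bladder and Ctrl colon differed far more than the genotypes. All 10 members were higher in Ctrl bladder at an adjusted p under 0.05 (23.7% of all genes were higher), with a median log2 fold change of 2.11 against -0.05 for all genes. *Mylk* had the largest difference (2.70, SE 0.17, limma adjusted p = 1.96e-07), followed by *Myh11* (2.43), *Lmod1* (2.36), *Cnn1* (2.18), *Acta2* (2.15), *Tagln* (2.08), *Actg2* (2.06), *Smtn* (1.95), and *Myl9* (1.58). *Myl6* had the smallest (0.66, SE 0.18, limma adjusted p = 0.00852). The difference was not particular to the members. Also called higher in Ctrl bladder were 15 of 15 other smooth muscle genes (median 1.9) and 5 of 6 fibroblast genes (1.59). So were 4 of 5 neuron and glia genes (1.71) and 4 of 4 endothelial genes (1.21), while 6 of 6 colon epithelial genes tested were lower (-3.83). The part of tissue makeup in this was not tested. Between the Y/T KO tissues, 9 of 10 members were higher in bladder (23.8% of all genes were), with a median of 1.87. *Myl6* did not pass (log2 fold change 0.12, 95% interval -0.26 to 0.51, limma adjusted p = 0.595). With mouse 782 as the only Y/T KO bladder, the median was 2.44 over the members and -0.01 over all genes. With all Y/T KO libraries, *Myh11* and *Mylk* had the largest differences of the members between these tissues too, at 3.08 and 3.03. The scaling shifted this contrast: on TPM as deposited the median of all genes was 0.21, and scaled to equal sums without the members it was 0.27. The counts of all genes then moved from 4052 lower and 3870 higher to 2646 and 5076, and to 2436 and 5439. Each member remained above these medians in Ctrl.

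Ratios within a library do not depend on its scaling, and 9 between the members and their relatives were compared. Each was compared between genotypes in colon and in bladder and between the Ctrl tissues. In these 27 exact permutation tests on 3 against 3 libraries the lowest adjusted p was 0.16. Groups did not overlap for 7 ratios between genotypes in the colon, 3 in the bladder, and 7 between Ctrl tissues, 17 in all. Groups set apart have an exact permutation p of 0.10, the smallest possible. Smooth muscle actin (*Acta2* plus *Actg2*) over cytoplasmic actin (*Actb* plus *Actg1*) was 1.59, 2.0, and 1.64 in Ctrl colon and 0.986, 1.16, and 0.749 in Y/T KO colon. Ctrl bladders had ratios of 6.49, 6.88, and 6.89, and Y/T KO bladders had 4.77, 4.50, and 3.30. Groups were apart in both tissues, mouse 782 included (exact p = 0.10, adjusted 0.16 for each). *Actb* and *Actg1* had log2 fold changes of 0.16 and 0.21 for colon and -0.35 and -0.14 for bladder, none of which passed the test, and -0.03 and -0.05 for bladder with mouse 782 alone.

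The ratio of *Myh11* to the nonmuscle heavy chains *Myh9* plus *Myh10* was 3.66 ± 0.573 in Ctrl colon and 1.85 ± 0.174 in Y/T KO colon (SD, n = 3 and 3, exact permutation p = 0.10). In the bladder it was 13.8 ± 1.19 and 14.6 ± 3.63, with mouse 782 at 18.6 and overlap (exact permutation p = 0.90, n = 3 and 3). Smooth muscle actin over *Myh11* was 12.2, 8.74, and 11.1 in Ctrl colon and 14.0, 12.3, and 12.7 in Y/T KO colon. Ctrl bladders had 7.25, 9.53, and 8.88, and Y/T KO bladders had 5.64, 5.20, and 5.28. All Y/T KO colons were above the Ctrl colons, mouse 783 at 12.3 by the least, and all Y/T KO bladders were below the Ctrl bladders. *Lmod1* over smooth muscle actin was 0.00894 ± 0.000593 in Ctrl colon and 0.0108 ± 0.00103 in Y/T KO colon, and 0.0107 ± 0.00124 and 0.0188 ± 0.00133 in the bladder, where mouse 782 was at 0.0181 (SD, n = 3 each, exact permutation p = 0.10 in both). The other ratios, of *Acta2* to *Actg2*, *Mylk* to *Myh11*, *Myl9* to *Myl12a* plus *Myl12b*, *Cnn1* to *Cnn2* plus *Cnn3*, and *Tagln* to *Tagln2*, overlapped between genotypes in the bladder. In the colon the first 3 of these were apart and the last 2 were not.

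**Figure D4:**
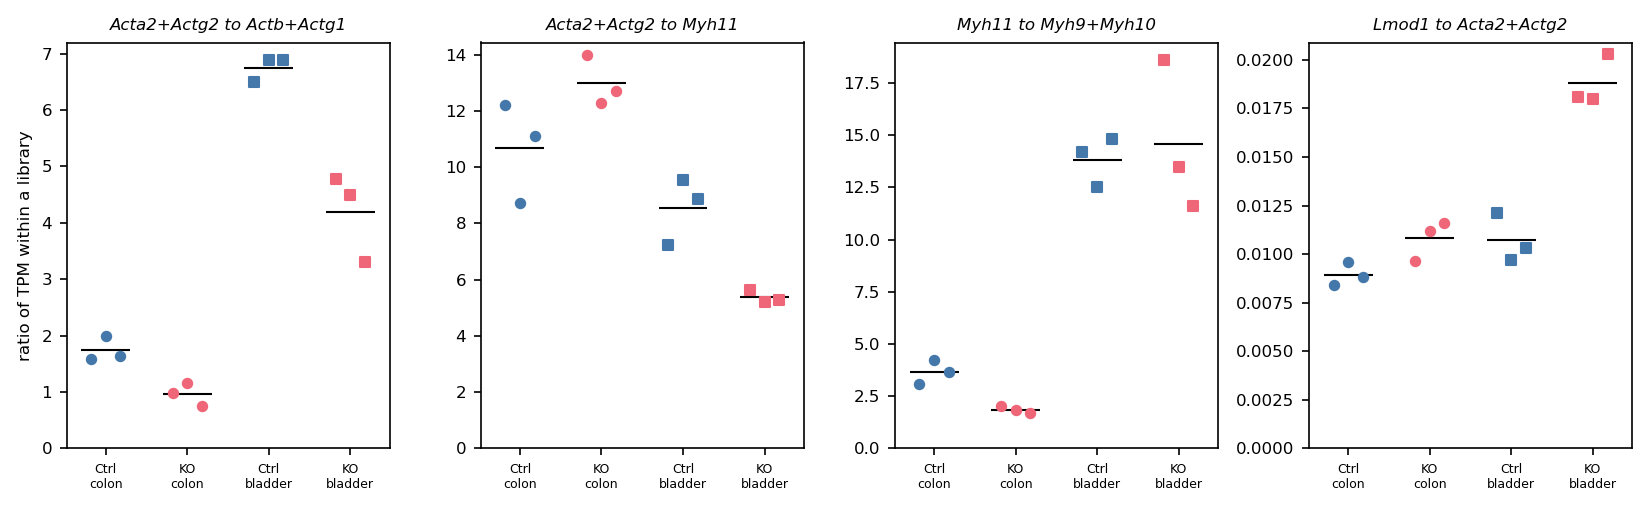
Ratio of summed TPM within each library (y axes, from 0) for 4 pairs of gene groups. Points are libraries, circles colon and squares bladder, blue Ctrl and red Y/T KO, and lines are group means. Smooth muscle actin over *Myh11* is higher in Y/T KO in the colon (13.0 against 10.7) and lower in Y/T KO in the bladder (5.37 against 8.56).

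The other genes of the pathway were taken from lists. Of 15 further smooth muscle genes, most of them of the thin filament, the intermediate filament, and the dense body, 15 were lower in Y/T KO in both tissues. In limma, 0 passed an adjusted p of 0.05, with 8 (colon) and 10 (bladder) at an unadjusted p under 0.05. Of all genes, 49.1% and 49.8% had a log2 fold change below 0, and 4.59% and 8.20% were lower at an unadjusted p under 0.05. The median log2 fold changes of the list were -0.36 and -0.57. The list summed to 20249 TPM for the Y/T KO bladder of mouse 782, to 13989 and 13335 for those of mice 783 and 780, and to 21090 to 24972 for Ctrl bladders. With mouse 782 alone, 12 of 15 were lower and the median was -0.34, with 7 at an unadjusted p under 0.05 (4.19% of all genes, lower). In that fit *Hspb6*, the gene of a small heat shock protein and named after its value was seen, passed at -2.57 (limma adjusted p = 0.0112). Its level in mouse 782 was 66.6 TPM, while the other 5 bladders lay between 341 and 404, and with all 6 libraries it did not pass (-0.87, SE 0.71, adjusted p = 0.609). In the colon the largest were *Synpo2* (-0.85, limma adjusted p = 0.0851), *Pgm5* (-0.78), and *Synm* (-0.72), the gene of an intermediate filament protein. In the bladder they were *Actn1* (-1.25), the gene of the cross-linker alpha-actinin, *Cald1* (-1.13, adjusted p = 0.0789), that of caldesmon, and *Des* (-1.02), that of the intermediate filament protein desmin. These were at -0.72, -0.84, and -0.61 with mouse 782 alone. Of 14 genes that set light chain phosphorylation (calmodulin, myosin phosphatase, RhoA, and kinases), 13 (colon) and 11 (bladder) were lower, with medians of -0.16 and -0.28 and 0 called. At an unadjusted p under 0.05 there were 0 colon and 5 bladder genes, all 5 lower, beside the 4.59% and 8.20% of all genes, and in the latter tissue *Dapk3* (-0.60), *Rock2* (-0.57), and *Ilk* (-0.50) were lowest. With mouse 782 alone, 11 were lower, the median was -0.17, 2 had an unadjusted p under 0.05, and these 3 genes were at -0.68, -0.71, and -0.35.

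Of 21 relatives of the members, from the same gene families, 15 passed the filter for colon and 21 for bladder, with medians of -0.03 and -0.13 and 0 called. At an unadjusted p under 0.05, 1 was lower for colon and 3 for bladder, against 4.59% and 8.20% of all genes. *Myl12a*, a nonmuscle regulatory light chain, was the lowest in the colon (-0.60, adjusted p = 0.492). In the bladder the striated muscle relatives *Lmod2* (4.69, SE 2.29), *Mylk2* (3.98, SE 1.19), and *Mylk4* (3.61, SE 2.41) had the largest positive log2 fold changes, in the comparison that holds the 2 libraries rich in skeletal muscle transcripts. *Myh14* (-0.67, adjusted p = 0.145) and *Myh9* (-0.55, adjusted p = 0.163) were the lowest after *Mylk3* (-0.92, SE 0.70). With mouse 782 alone 17 relatives passed the filter, with a median of -0.18, and *Mylk2* was at 1.55 (SE 1.08), *Mylk3* at 0.53 (SE 0.47), *Myh14* at -0.66, and *Myh9* at -0.48.

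Within tissue-centred values over 12 libraries, the genes most like the mean of the 10 members were *C1qtnf2* (Pearson r 0.968), *Ncs1* (0.957), *Tpm2* (0.956), *H2afy2* (0.956), *Wfdc1* (0.947), *Fzd2* (0.943), *Adgre5* (0.942), *Bves* (0.939), *Tgfb1i1* (0.938), and *Csrp1* (0.935), of 16298 genes. Among the members r ran from 0.73 (*Myl6*) to 0.97 (*Acta2*), each being part of that mean. These are descriptions, since the libraries share genotype, scaling, and depth. Values were centred by tissue and not by genotype, so genes picked this way tend to be lower in Y/T KO, as the members are. *Tpm2* and *Csrp1* are themselves genes of smooth muscle filaments. The Y/T KO mean of *Fzd2*, a Wnt receptor, was 60.6% (colon) and 59.8% (bladder) of Ctrl, which the choice favours and which is no separate result.

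The coverage of a gene over its FPKM, compared with *Lmod1*, changes with the mix of transcripts used. Over 12 libraries its highest value was 1.00 to 1.06 times the lowest for 8 of the members, *Myh11* among them. These 8 include the reference *Lmod1*, at 1.00 by definition, and *Acta2*, which equalled the reference in every library. No mix of transcripts could be read from either. It was 1.13 times for *Mylk* (0.0910 to 0.103) and 1.16 times for *Smtn* (0.268 to 0.311).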

How the data were processed

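Stranded polyadenylated RNA libraries of 12 samples were processed by the authors with HISAT2 and StringTie on GRCm38, per the labels' processing notes and the paper; versions are not given in the sources used here. The deposited TPM and FPKM values and per-base coverage (signal) come from 1 table per library. The authors' read counts were not used, so limma replaced a count test. The files and GENCODE M21 gave the same span for 9 of 10 members, and *Acta2* began later in the files. TPM was summed by gene ID, rescaled by median-of-ratios size factors, and kept at 0.5 TPM or more in at least 3 libraries of a tissue. log2(TPM + 0.1) was fitted with limma 3.58.1 (trend and robust) in R 4.3.3, by tissue for genotype and over all 12 libraries for tissue and interaction, with two-sided p-values adjusted by Benjamini-Hochberg over all genes. Called means an adjusted p under 0.05. Ratios were compared by exact two-sided permutation tests. Depth, 2.80 to 3.93 aligned gigabases per library, was read from coverage over FPKM; counting error was not estimated, so differences were judged by the spread between mice. The fits were tested on simulated data.

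The members and lists were chosen with earlier results of these data known. Named genes are the members, *Yap1* and *Wwtr1*, the 3 largest changes either way in a list or those in a ratio, and the 10 most like the members' mean. The mouse links colon and bladder for 3 of 9 mice, with a consensus correlation of 0.0566 within mouse. Alternatives were pseudocounts of 0.5 and 1 TPM, no filter or a mean of 1 TPM, TPM or FPKM as deposited, scaling without the members, no trend and robust options, 1 fit for all libraries, the mouse as a block, and each library left out. Leaving out both Y/T KO bladders of mice 783 and 780 was chosen after seeing the data.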

Additional observations from a re-analysis of the deposited data

Results flagged for a closer look

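The ratio of *Acta2* plus *Actg2* to *Myh11* was higher in Y/T KO than in Ctrl in the colon and lower in the bladder. The log2 difference between Y/T KO and Ctrl was 0.29 for colon and -0.66 for bladder, so that the bladder effect minus the colon effect was -0.95. An exact permutation test of that difference exchanged genotype labels within each tissue (400 arrangements, 3 libraries per group). Its exact permutation p was 0.0050, the smallest it can give, and 0.0450 after Benjamini-Hochberg adjustment over 9 ratios. Groups already seen apart in opposite directions fix this p in advance. The exchange also takes the knockout to have no effect in either tissue, so it cannot decide whether the effects of the tissues are unequal. The ratio was above every Ctrl library in 3 of 3 Y/T KO colons and below every Ctrl library in 3 of 3 Y/T KO bladders. The test was chosen after seeing the data and does not use the mice that gave both tissues as pairs. Leaving out each library in turn gave -1.07 to -0.82, with exact permutation p from 0.0050 to 0.010, and the adjusted p was 0.0900 without Ctrl mouse 786 or any of the Y/T KO colons. Without both Y/T KO bladders of mice 783 and 780 it was -0.88 (adjusted p = 0.0563). With *Myh11* over *Myh9* plus *Myh10* the difference was 1.02 (exact permutation p = 0.0450, adjusted 0.165).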

How the results depend on the processing

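With Y/T KO against Ctrl, 0 members were called in either tissue and 0 in the interaction under every alternative run, and 10 were higher in Ctrl bladder than Ctrl colon. Without both Y/T KO bladders of mice 783 and 780 the bladder median moved from -0.54 to -0.12, with *Myh11* at 0.06, *Myl9* at 0.25, *Mylk* at 0.05, *Smtn* at 0.05, and *Lmod1* at 0.23, the interaction of *Smtn* at 0.47, and the tissue difference of *Tagln* to *Tagln2* at 0.15. *Myl6* in the colon was -0.02 on TPM as deposited, -0.02 scaled without the members, and -0.01 in 1 fit of all libraries, and between Y/T KO tissues it was 0.43 scaled without the members (limma adjusted p = 0.0434, and up to 0.634 under the other settings that keep all libraries), so that 10 members were then called. Leaving out each library, the medians ran from -0.58 (without Y/T KO mouse 783) to -0.42 (without 780) in the colon and from -0.75 (without Y/T KO mouse 782) to -0.42 (without 780) in the bladder. The ranges that crossed 0 were those of *Myl6* in the colon (-0.20 to 0.16) and between Y/T KO tissues (-0.01 to 0.23), and of the interactions of *Acta2* (-0.20 to 0.19), *Myl9* (-0.01 to 0.51), and *Smtn* (-0.40 to 0.07). For ratios they were *Acta2* to *Actg2* between Ctrl tissues (-0.06 to 0.26), *Myh11* to *Myh9* plus *Myh10* (-0.14 to 0.20) and *Myl9* to *Myl12a* plus *Myl12b* (-0.44 to 0.30) in the bladder, *Cnn1* to *Cnn2* plus *Cnn3* in the colon (-0.06 to 0.44), and the tissue differences of smooth muscle to cytoplasmic actin (-0.01 to 0.33), *Myl9* to *Myl12a* plus *Myl12b* (-0.15 to 0.58), and *Tagln* to *Tagln2* (-0.36 to 0.01). The cause was not tested.

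With the mouse as a replicate block, the interaction was 0.65 for *Myh11* (limma adjusted p = 0.314) and 0.03 for *Acta2*, and no call changed. Ctrl and Y/T KO of a tissue share no mouse, so the block enters only contrasts over both tissues.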
